A study of Rattus norvegicus with 12 samples.

Results

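The comparison set all 9 esophageal arrays from rats given N-nitrosomethylbenzylamine (NMBA) against the 3 control arrays. It used 12 of the 12 arrays of the series, and asked which transcripts stood on 1 side of the controls at every stage of carcinogenesis. Members were chosen by their titles: 3 arrays labelled NMBA wk6, 3 labelled NMBA wk15 and 3 labelled NMBA wk29, which the labels also call early, middle and late stage, and 3 labelled Control, called normal control. The labels count the weeks after NMBA treatment. NMBA rats received subcutaneous injections of 0.2 ml at 0.3 mg NMBA per kg body weight, 3 times per week for 5 weeks. Controls received the solvent, dimethyl sulfoxide in water, on the same plan. Strain, sex and age of the groups used here, and the week at which controls were sampled, are not stated in the labels, so age and time since treatment cannot be told apart from NMBA. Rats were kept 3 per cage, and the labels tie no array to a cage or to a separate animal, and the spread that the p-values rest on is that between these arrays, which may be technical. RNA came from part of each esophagus after the submucosa and muscle had been stripped off. In such bulk RNA, fewer cells of a type and less RNA per cell cannot be told apart.

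NMBA is a nitrosamine that cytochrome P450 enzymes turn into a methylating agent, and it gives squamous papillomas and carcinomas of the rat esophagus. The esophageal lining is a stratified squamous epithelium over a vascular lamina propria, so the tissue sampled also holds endothelial cells, fibroblasts, dendritic cells, macrophages and lymphocytes. Interferon gamma is made by T and natural killer cells, and Irf1 is one of the factors of its response. Its targets include guanylate-binding proteins, the immunoproteasome, the peptide transporter Tap and the chemokines Cxcl9 and Cxcl10. Type I interferons act on an overlapping set of antiviral genes. Endothelial identity is kept by transcription factors of the ETS and SoxF families, and by receptors such as Kdr, Tek and Tie1.

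Values are log2 probe set signals, in which a difference of -1 is a signal 2 times lower. They ran from 2.49 to 14.71, and array medians from 6.42 to 6.49. Some arrays stood apart. The skeletal muscle score, the mean log2 signal of 38 striated muscle genes, was 11.39, 11.78 and 11.79 in controls, 12.16 to 12.30 at week 6, 9.75 to 11.30 at week 15 and 11.90 to 12.16 at week 29. It therefore lay above every control at weeks 6 and 29 and below every control at week 15. The difference between the 3' and 5' GAPDH control probe sets, which is larger in degraded RNA, was 0.22 to 0.53 in controls and 0.22 to 0.60 at week 15. It was 0.07 to 0.15 at week 6 and 0.13 to 0.21 at week 29, below every control. Control 3 had the highest antiviral interferon score, at 7.49 against 6.99 and 6.98 in the other controls. The tissue carried the labelled epithelium, with Krt13 at 13.17 to 14.55 over the 12 arrays, and also striated muscle despite the stripping, with Acta1 at 14.03 to 14.71. Endothelial markers were present on all arrays, with Pecam1 at a mean log2 signal of 8.80 over the 12 arrays.

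With the 9 NMBA arrays as 1 group, 1 of 31042 probe sets was called (0.00322%), at an adjusted p under 0.05 from limma. It was 1373740_at, to which the annotation used here gives no gene. Its signal was 6.80 in NMBA arrays and 7.61 in controls, a difference of -0.80 ± 0.08 (SE; adjusted p = 0.00512), and it was lower by 0.79 at week 6, 0.80 at week 15 and 0.82 at week 29. No gene with a symbol was called, while 878 of 14217 genes (6.18%) had an unadjusted p under 0.05, 604 lower (4.25%) and 274 higher (1.93%). The 2-group fit keeps the spread between weeks in its error, and the weeks differed from each other by an F test for 11540 probe sets (37.2%). Leaving out any 1 control gave 0 called probe sets.

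Some probe sets separated the groups without overlap. In 489 probe sets (1.58%) all 9 NMBA values lay on 1 side of all 3 controls, 223 below (0.718%) and 266 above (0.857%). Among genes, each taken by its brightest probe set, 121 lay below every control (0.851%) and 76 above (0.535%). How many would do so with array labels drawn at random was not tested. Lying on 1 side of every control is therefore a description of the values here and below. Leaving out any 1 array, from either group, gave between 521 and 1354 such probe sets, so the count rests on how many arrays are compared.

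The weeks were then compared with the controls one at a time, in 1 fit of 4 groups. The 3 comparisons share the same controls. At week 6, 2342 probe sets were called (7.54%), at week 15 2455 (7.91%) and at week 29 4705 (15.2%). Called at each week with 1 sign were 37 probe sets (0.119%), 36 of them lower (0.116%) and 1 higher (0.00322%). All 37 separated the NMBA and control arrays without overlap, and 4 of them differed between weeks by the F test. By brightest probe set they named 22 genes (0.155%), all lower, and those genes are described first below. A stricter test, which takes the largest of the 3 p-values and adjusts it over all probe sets, called 0 by limma, with 337 probe sets at an unadjusted p under 0.05 (1.09%), 248 lower (0.799%) and 89 higher (0.287%). The count of 37 rests on single arrays. It was 1 without control 1, 0 without control 3, 2, 0 and 1 without week 6 replicates 1, 2 and 3, 22 without week 15 replicate 3, and 19 without week 29 replicate 3. It was 0 with either the muscle score or the GAPDH difference as a covariate. Taking the mean of the 3 weeks against control in the same fit called 50 probe sets (0.161%), 49 lower (0.158%) and 1 higher (0.00322%), which named 32 genes (0.225%), 31 lower (0.218%) and 1 higher (0.00703%).

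**Figure D1:**
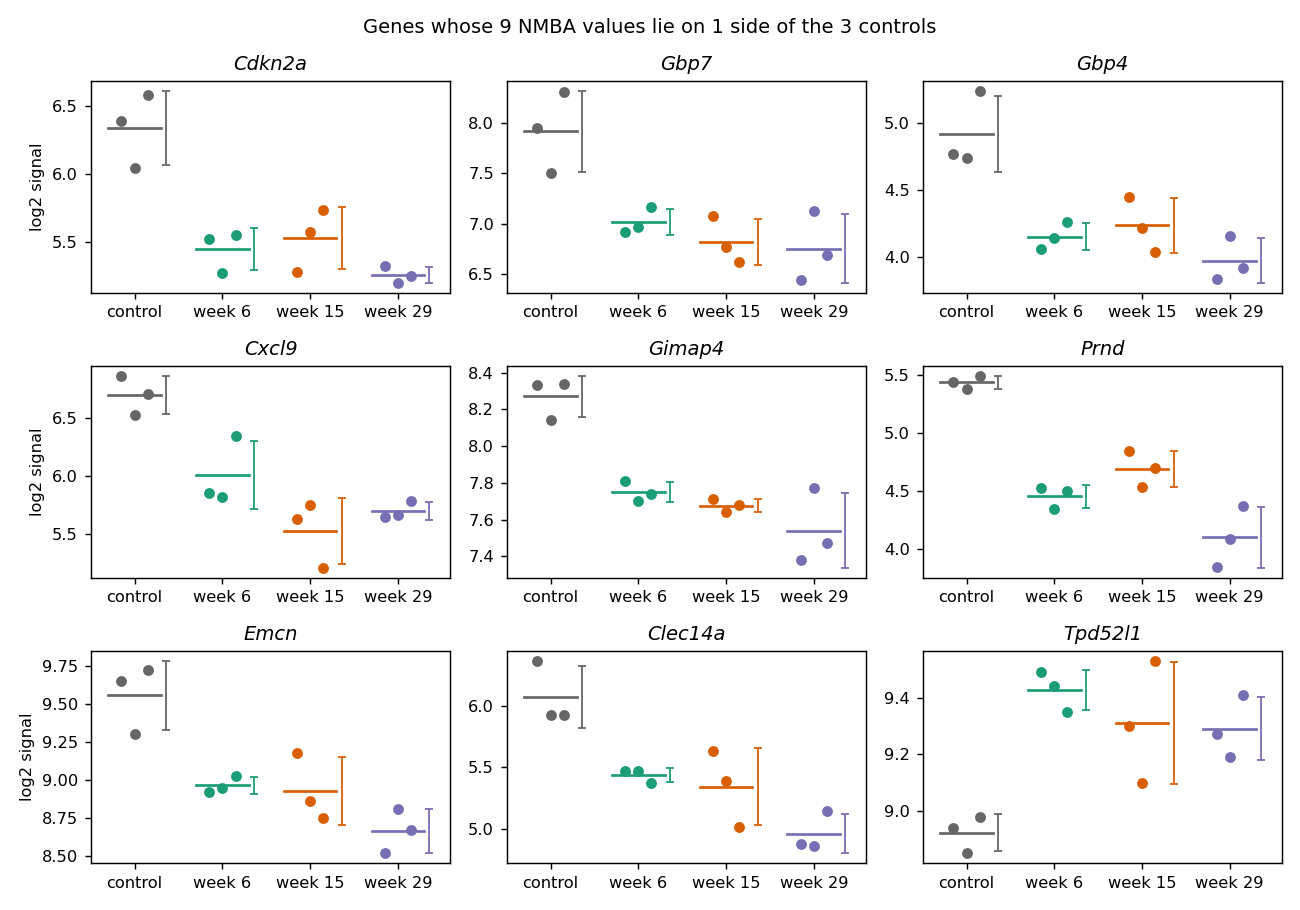
Log2 signal (vertical axis, a separate scale in each panel) of 9 genes on the 12 arrays, by group on the horizontal axis; points are arrays, horizontal lines group means and bars ± 1 SD of 3 arrays. In 8 panels every NMBA array lies below every control, as for Cdkn2a with controls at 6.04 to 6.58 and NMBA arrays at 5.20 to 5.73, and in the Tpd52l1 panel every NMBA array lies above.

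Cdkn2a, a tumor suppressor locus whose products restrain the cyclin D-dependent kinases and stabilise p53, had the lowest p-value of all genes. Control signals were 6.39, 6.04 and 6.58. They were 5.52, 5.27 and 5.55 at week 6, 5.28, 5.57 and 5.73 at week 15, and 5.32, 5.20 and 5.25 at week 29. All 9 NMBA arrays lay below all 3 controls, and the weeks overlapped each other. The pooled difference was -0.93 ± 0.13 (SE), a signal 1.90 times lower, with an adjusted p of 0.164. Against control Cdkn2a fell by 0.89 at week 6 (adjusted p = 0.0184), 0.81 at week 15 (0.0102) and 1.08 at week 29 (0.00465). Its neighbor Cdkn2b, another cyclin-dependent kinase inhibitor and chosen after its values were seen, did not separate the groups: 6.55 to 6.69 in controls and 6.24 to 6.87 in NMBA arrays, a difference of -0.04 (95% interval -0.28 to 0.19). For Cdkn1a, the p53-induced inhibitor, the difference was -0.01 (-0.61 to 0.59) for the brightest probe set and 0.59 for another.

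Endothelial genes were the cell type list with most members below every control. Of 28 measured genes 27 were lower on average, with a median difference of -0.38 against 0.00 over all genes, and 9 lay below every control (0.851% of all genes) with none above. Against 604 of all 14217 genes, 21 of the 28 had a lower signal at an unadjusted p under 0.05. By week, 6 of 28 fell at week 6 (3.76% of all genes), 7 at week 15 (8.38%) and 16 at week 29 (10.8%). None rose, against 5.07%, 1.54% and 8.44% of all genes at the 3 weeks. The median was -0.36 at week 6, -0.29 at week 15 and -0.48 at week 29. The endothelial score was 8.39, 8.13 and 8.30 in controls and 7.63 to 8.15 in NMBA arrays, with only week 15 replicate 1 above a control. The list and its direction were known from earlier results on these arrays, so its count is not independent evidence.

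Emcn, the endothelial sialoglycoprotein endomucin, had signals of 9.65, 9.30 and 9.72 in controls, 8.92, 8.95 and 9.03 at week 6, 9.18, 8.86 and 8.75 at week 15, and 8.52, 8.81 and 8.67 at week 29. The groups did not overlap. Emcn fell at each week, by 0.59, 0.63 and 0.89 (adjusted p = 0.0285, 0.0196 and 0.00694).

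Clec14a, an endothelial C-type lectin, was at 6.37, 5.93 and 5.93 in controls and between 4.86 and 5.63 in NMBA arrays, with the lowest mean at week 29. It fell by 0.64, 0.73 and 1.12 at weeks 6, 15 and 29 (adjusted p = 0.0360, 0.0199 and 0.00546). Cd93, a lectin receptor of the same family and outside the list, was at 8.72 to 8.99 in controls and 7.78 to 8.42 in NMBA arrays, and fell by 0.61, 0.52 and 0.90. A second, dimmer Cd93 probe set differed by 0.06. Sox17, a transcription factor of arterial endothelium, was at 8.09, 7.76 and 8.28 in controls and 7.25 to 7.60 in NMBA arrays. It fell by 0.55, 0.56 and 0.75 by its brightest probe set, while 2 dimmer ones differed by 0.04 and -0.01.

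Aqp1, Arhgef15 and Fgd5, known from endothelial cells but outside the list, also fell at each week and were, like Cd93, chosen after their values were seen. Aqp1, the water channel of capillary endothelium and red cells, fell by 0.38, 0.39 and 0.62 (adjusted p = 0.0415, 0.0352 and 0.00830), from 11.39 to 11.72 in controls to 10.93 to 11.29 in NMBA arrays. A second, dimmer Aqp1 probe set differed by -0.26 in the pooled comparison and overlapped the controls. Arhgef15, an endothelial guanine nucleotide exchange factor, was at 7.94 to 7.97 in controls and 7.31 to 7.75 in NMBA arrays, and fell by 0.42, 0.48 and 0.41. Fgd5, an exchange factor for Cdc42, was at 7.49 to 7.72 in controls and 7.01 to 7.32 in NMBA arrays, and fell by 0.39, 0.54 and 0.38.

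Other list members separated the groups without passing the test at every week. The angiopoietin receptor Tek was at 9.14 to 9.49 in controls and 8.61 to 9.13 in NMBA arrays, and its relative Tie1 at 8.06 to 8.29 and 7.22 to 8.03. Both fell at week 29 alone by the test, by 0.47 and 0.57. Icam2, an adhesion molecule of vessels, and Ptprb, the vascular endothelial phosphatase, fell at weeks 15 and 29, by 0.57 and 0.56 and by 0.55 and 0.64. A dimmer Icam2 probe set differed by -0.05. The ETS factor Erg lay below every control, with a pooled difference of -0.34, and fell at week 29 by 0.50. Rasip1, which acts in vessel lumen formation, fell at weeks 6 and 29 by 0.40 and 0.62, but its 2 dimmer probe sets differed by 0.10 and 0.20. Plvap, the protein of endothelial diaphragms, fell by 0.71 at week 6 and 1.09 at week 29, and differed by -0.04 at week 15 (F test adjusted p = 0.000113). The lymphatic markers Prox1 (-0.07), Lyve1 (-0.06) and Flt4 (0.10) overlapped the controls in the pooled comparison, although Lyve1 fell at week 15 by 0.73.

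**Figure D2:**
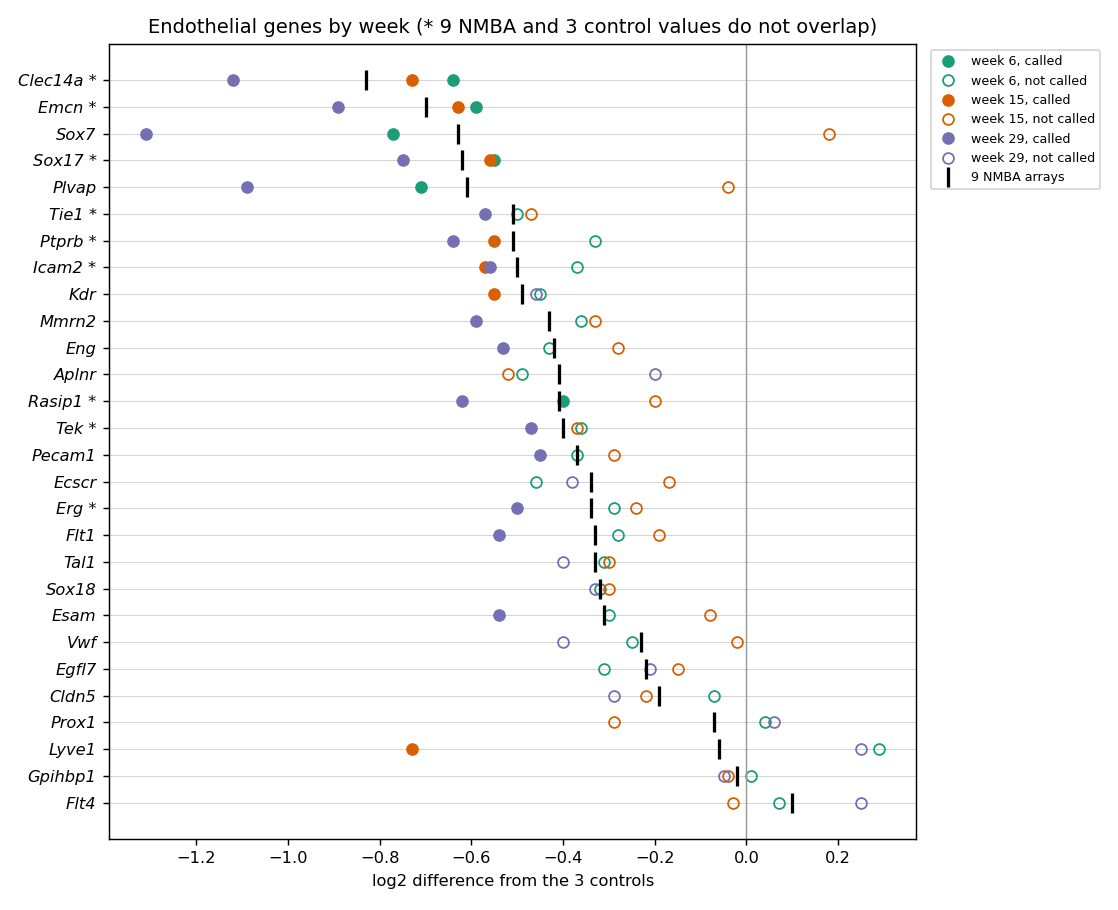
Log2 difference from the 3 controls (horizontal axis) for the 28 measured endothelial genes (vertical axis), for weeks 6, 15 and 29 (filled where the adjusted p was under 0.05) and for the 9 NMBA arrays together (black tick). For 27 of 28 genes the black tick lies below 0, from -0.83 for Clec14a to -0.02 for Gpihbp1, and only Flt4 lies above, at 0.10.

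Genes of the interferon gamma and antigen presentation list made up the second group. Of 23 measured genes 18 were lower on average (median -0.34), 8 lay below every control (0.851% of all genes) and none above, and 11 had a lower signal at an unadjusted p under 0.05 (4.25% of all genes). At weeks 6, 15 and 29, 7, 5 and 12 members fell and none rose, where 3.76%, 8.38% and 10.8% of all genes fell, and Cxcl9, Gbp4, Psmb9 and Irf1 fell at each week. The list score was 7.55, 7.45 and 7.75 in controls and 6.93 to 7.43 in NMBA arrays, without overlap. This list, too, was written with earlier results known.

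The guanylate-binding proteins are interferon-induced GTPases that act against microbes inside cells. Gbp2 and Gbp4 are in the list. Gbp7 is outside it and was named by rule, for its low p-value, so the list counts do not include it. For Gbp7, signals were 7.95, 7.50 and 8.31 in controls, 6.92, 6.97 and 7.16 at week 6, 7.07, 6.77 and 6.62 at week 15, and 6.44, 7.12 and 6.69 at week 29. Every NMBA array lay below every control. Gbp7 fell by 0.90, 1.10 and 1.17 at the 3 weeks (adjusted p = 0.0285, 0.0122 and 0.00987), and the pooled difference was -1.06 ± 0.18 (SE; adjusted p = 0.212).

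Gbp4 was at 4.77, 4.74 and 5.24 in controls, 4.06 to 4.26 at week 6, 4.04 to 4.45 at week 15 and 3.84 to 4.16 at week 29, and fell by 0.77, 0.68 and 0.94. Gbp2 was at 7.30, 6.92 and 7.96 in controls and 6.03 to 6.84 in NMBA arrays, and fell at week 29 by 1.25 (adjusted p = 0.00918), with differences of -0.76 and -0.73 at weeks 6 and 15 (0.0502 and 0.0577). Control 3 was the highest control for all 3 Gbp genes. Without it the pooled differences were -0.86 for Gbp7, -0.64 for Gbp4 and -0.63 for Gbp2.

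Promoters of these genes are printed because the Gbp genes start close together on chromosome 2 and had lower signals together, and because interferon-induced genes are known to be read through 2 short motifs. The sequences are the 150 bases before the annotated start in RefSeq's GRCr8 assembly, 5′ to 3′ on the gene's strand. Capitals mark matches, on either strand, to the core of the interferon-stimulated response element (ISRE), GAAANNGAAA, or to the gamma-activated site (GAS), TTCNNNGAA. The windows lie at chr2:233948739-233948888 (+) for Gbp7, chr2:233978336-233978485 (+) for Gbp4, chr2:234005577-234005726 (+) for Gbp2, chr10:38417785-38417934 (+) for Irf1 and chr20:4668544-4668693 (-) for Tap1.
Gbp7: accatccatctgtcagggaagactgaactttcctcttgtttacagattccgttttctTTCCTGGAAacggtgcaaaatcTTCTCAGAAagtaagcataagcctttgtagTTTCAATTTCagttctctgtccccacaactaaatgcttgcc
Gbp4: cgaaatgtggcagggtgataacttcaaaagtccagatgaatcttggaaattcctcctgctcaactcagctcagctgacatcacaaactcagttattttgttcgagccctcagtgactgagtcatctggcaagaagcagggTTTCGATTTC
Gbp2: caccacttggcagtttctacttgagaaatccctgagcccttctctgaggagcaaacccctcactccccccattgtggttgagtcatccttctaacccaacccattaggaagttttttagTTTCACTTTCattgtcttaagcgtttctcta
Irf1: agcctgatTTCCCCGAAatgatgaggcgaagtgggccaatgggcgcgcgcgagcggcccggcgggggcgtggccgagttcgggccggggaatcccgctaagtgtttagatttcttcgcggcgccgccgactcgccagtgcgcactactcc
Tap1: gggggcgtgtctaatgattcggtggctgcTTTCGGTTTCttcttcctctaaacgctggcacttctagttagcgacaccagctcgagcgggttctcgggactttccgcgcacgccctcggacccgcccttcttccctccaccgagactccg

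Each of the 3 Gbp windows holds 1 ISRE core close to the start, at -41 to -32 in Gbp7, -10 to -1 in Gbp4 and -31 to -22 in Gbp2. The Gbp7 window also holds 2 GAS matches, the Irf1 window 1 GAS match and the Tap1 window 1 ISRE core. The same windows of Psmb9, Psmb8 and Cxcl9, which are not printed, hold no whole match to either motif. Beyond the window, Psmb8 has an ISRE core across its start, at -4 to 6, and a GAS match at -245 to -237. Cxcl9 has a GAS match at 33 to 41. In windows of 250 bases before to 50 after the start, 13 of the 20 matched members of the list had an ISRE core (65.0%) and 8 had a GAS match (40.0%). Over all 27457 promoters in the RefSeq table the shares were 3.77% and 8.68%, and over 11733 matched genes on the array 2.99% and 6.99%. The list was written from genes of the interferon response, so high shares go with its making and say nothing about NMBA. Of the 18 matched genes that fell at each week, 2 had an ISRE core (11.1%), Gbp7 and Gbp4, and 3 a GAS match (16.7%). None of 15 matched endothelial genes had either. Both motifs are degenerate, a match is a description of the letters, and binding was not measured.

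Irf1, the transcription factor of the interferon gamma response, was at 8.30, 8.13 and 8.46 in controls, 7.70 to 7.82 at week 6, 7.57 to 8.02 at week 15 and 7.29 to 7.77 at week 29. It fell by 0.55, 0.54 and 0.70 (adjusted p = 0.0436, 0.0450 and 0.0151). Cxcl9, a chemokine that attracts activated T cells, was at 6.86, 6.53 and 6.71 in controls, 5.86, 5.82 and 6.35 at week 6, 5.63, 5.75 and 5.21 at week 15, and 5.65, 5.67 and 5.79 at week 29. It fell by 0.69, 1.17 and 1.00 (adjusted p = 0.0309, 0.00386 and 0.00830) and was among the 5 genes called by the pooled fit that holds the muscle score constant (-0.94, adjusted p = 0.033 by limma). A second, dimmer Cxcl9 probe set differed by -0.64 in the pooled comparison and overlapped the controls. Cxcl10, a chemokine for the same receptor, fell by 1.35 at week 29 alone.

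Psmb9, Psmb8 and Psmb10 encode the catalytic subunits of the immunoproteasome, which cuts proteins into peptides for class I presentation. Psmb9 was at 8.85, 8.65 and 8.99 in controls, 7.93 to 8.28 at week 6, 8.14 to 8.34 at week 15 and 7.37 to 7.80 at week 29, and fell by 0.72, 0.60 and 1.2 (adjusted p = 0.0210, 0.0217 and 0.00232). Psmb8 lay below every control and fell by 0.58 at week 6 and 1.02 at week 29, with a difference of -0.41 at week 15 (adjusted p = 0.0745). Psmb10 also lay below every control, with a pooled difference of -0.29, and fell at week 29 by 0.45.

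Tap1, the peptide transporter next to Psmb9 on chromosome 20, was at 8.04 to 8.50 in controls and overlapped them at week 15, at 8.06 to 8.21. It fell by 0.57 at week 6 and 0.82 at week 29. The weeks differed by the F test for Psmb9 (adjusted p = 0.00831), Psmb8 (0.00794) and Tap1 (0.00418), each with its smallest difference at week 15.

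**Figure D3:**
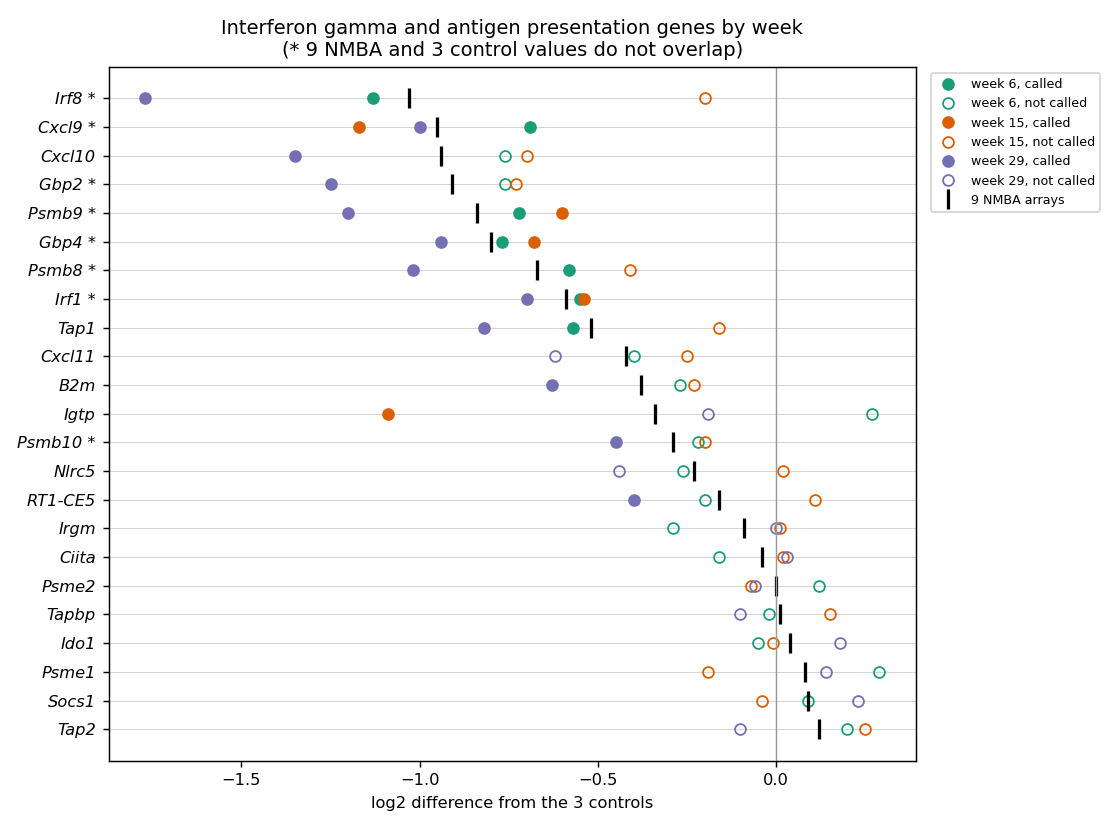
Log2 difference from the 3 controls (horizontal axis) for the 23 measured genes of the interferon gamma and antigen presentation list (vertical axis), with the same symbols as in the plot of endothelial genes. The 8 starred genes, whose 9 NMBA values lay below the 3 controls, had pooled differences from -1.03 for Irf8 to -0.29 for Psmb10.

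Antiviral interferon genes were lower in 30 of 32 measured members (median -0.35), 20 of them at an unadjusted p under 0.05 (4.25% of all genes). At weeks 6, 15 and 29, 7, 3 and 15 members fell and none rose, against 3.76%, 8.38% and 10.8% of all genes that fell, so the count at week 15 is near that share. Of the members 3 lay below every control (0.851% of all genes), none of them called at each week. The size of the difference depended on control 3. Mx2, an interferon-induced GTPase, was at 6.86, 6.72 and 8.43 in controls and 6.35 to 6.63 in NMBA arrays, so its pooled difference of -0.84 became -0.29 without control 3. For Irf7, the factor that amplifies type I interferon, the controls were at 7.86, 7.76 and 8.70 and the NMBA arrays at 7.27 to 7.69, and the difference went from -0.68 to -0.38. The list median was -0.35 with control 3 and -0.22 without it, while the endothelial median was -0.38 and -0.39. Slfn4 fell by 1.69 at week 6 and 1.94 at week 29, but week 15 replicate 1, at 8.66, lay inside the control range of 7.47 to 8.92. Mx1 fell by 1.30 at week 6 and 1.35 at week 29 and differed by -0.73 at week 15, and without control 3 its pooled difference went from -1.13 to -0.65. In 14 of 23 matched promoters of the list there was an ISRE core (60.9%) and in 6 a GAS match (26.1%). For this list, too, such shares go with how it was written.

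Further genes that fell at each week belonged to neither list, and apart from Gimap4 and Prnd they were chosen after their values were seen. Gimap4 and Gimap5 encode GTPases of a cluster known from lymphocytes. Gimap4 was at 8.33, 8.14 and 8.34 in controls, 7.70 to 7.81 at week 6, 7.64 to 7.71 at week 15 and 7.38 to 7.77 at week 29, and fell by 0.52, 0.59 and 0.73 (adjusted p = 0.0236, 0.01 and 0.00596). Gimap5 was at 7.93 to 8.08 in controls and 7.13 to 7.59 in NMBA arrays and fell by 0.50, 0.50 and 0.67. Their relatives Gimap1, Gimap6 and Gimap7 differed by -0.25, -0.25 and -0.37, and of these only Gimap6 passed a weekly test, at week 29.

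Markers of lymphocytes are given beside the Gimap genes. Of 26 measured T, B and natural killer cell genes 13 were lower on average, with a median of 0.00 (-0.18, 0.17 and 0.02 by week). None was called at any week by limma, where 3.76%, 8.38% and 10.8% of all genes fell at weeks 6, 15 and 29. None lay below every control (0.851% of all genes). In the pooled comparison by limma 1 had a lower signal at an unadjusted p under 0.05, near the share of all genes (4.25%). At such small shares, the pooled counts in 26 genes cannot show that lymphocyte genes were spared. Whether lymphocyte genes differed from the Gimap genes was not tested. The lymphocyte score was 5.46, 5.25 and 5.20 in controls and 5.05 to 5.58 in NMBA arrays. Cd3g, a T cell receptor chain, and Ccl5, a T cell chemokine, both differed by -0.27 in the pooled comparison and overlapped the controls.

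Prnd encodes doppel, a relative of the prion protein. It was at 5.44, 5.38 and 5.49 in controls, 4.52, 4.34 and 4.50 at week 6, 4.84, 4.53 and 4.70 at week 15, and 3.84, 4.08 and 4.37 at week 29. Its pooled difference was -1.02 ± 0.17 (SE; adjusted p = 0.212), the highest NMBA array, at 4.84, lay under the lowest control, at 5.38, and it fell by 0.98, 0.75 and 1.34 with the weeks differing (F test adjusted p = 0.00972). With the muscle score held constant the pooled difference was -1.03 (adjusted p = 0.033).

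The other 6 genes that fell at each week came from several families. Epb41l3, a protein of the membrane skeleton, fell by 0.72, 0.66 and 0.55 from a control range of 6.20 to 6.59. Its dimmer probe set differed by -0.41 in the pooled comparison and overlapped the controls. Tbc1d9, a protein with a Rab GTPase-activating domain, fell by 0.62, 0.61 and 0.66. Mme, the membrane peptidase neprilysin, was at 5.34 to 5.91 in controls and 4.75 to 5.20 in NMBA arrays and fell by 0.64, 0.64 and 0.49. Papss2, which makes the sulfate donor for proteoglycans, fell by 0.46, 0.65 and 0.44, and the spindlin gene Spin4 by 0.46, 0.51 and 0.39. A dimmer Papss2 probe set differed by -0.16 in the pooled comparison and overlapped the controls. Runx1t1, a transcriptional corepressor, fell by 0.48, 0.46 and 0.60, but its dimmer probe sets differed by 0.07, -0.31 and 0.01. Probe sets other than the brightest added Cav2 (by 2 probe sets), Tm4sf1 and Igfbp3 to the genes that fell at each week.

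Another set of genes was called on the mean of the 3 weeks but was smaller at week 15. Irf8, the factor that dendritic cells and monocytes need, was at 8.51, 8.32 and 8.24 in controls, 7.30, 7.10 and 7.30 at week 6, 8.19, 8.16 and 8.12 at week 15, and 6.71, 6.62 and 6.44 at week 29. No NMBA array reached a control, but the week 15 arrays came close, at 8.12 to 8.19 against a lowest control of 8.24. Irf8 fell by 1.13 at week 6 and 1.77 at week 29, while the difference at week 15 was -0.20 (adjusted p = 0.240; F test adjusted p = 3.12e-05).

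The dendritic cell genes Itgax and Clec9a had the same order of weeks as Irf8, which their list as a whole did not. Itgax, the integrin chain CD11c, was at 6.06 to 6.31 in controls, 4.92 to 5.59 at week 6, 5.75 to 5.90 at week 15 and 4.86 to 5.03 at week 29. It fell by 1.00 and 1.26 at weeks 6 and 29. Clec9a, a receptor of cross-presenting dendritic cells, lay below every control and fell by 0.89 and 1.16 at those weeks, with a difference of -0.46 at week 15. Of 24 measured macrophage and dendritic cell genes 20 were lower on average (median -0.22; -0.17, -0.21 and -0.19 by week). At weeks 6, 15 and 29, 3, 0 and 4 of them fell by limma, against 3.76%, 8.38% and 10.8% of all genes, and only Itgax and Clec9a lay below every control (0.851% of all genes). MHC class II genes had the lowest list median, -0.65 over 8 genes, but it was -0.71, -0.02 and -1.23 at the 3 weeks and none of the 8 separated the groups. RT1-Da differed by -1.14, -0.10 and -1.94 and RT1-Db1 by -0.98, -0.20 and -1.82, and both passed the test at week 29, RT1-Da also at week 6.

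Igfbp3, which binds insulin-like growth factors, was at 9.49, 9.15 and 9.17 in controls and 7.67 to 8.88 in NMBA arrays. It fell by 1.05 and 1.42 at weeks 6 and 29 and differed by -0.52 at week 15 (adjusted p = 0.0536). A second probe set fell at all 3 weeks, by 1.31, 0.81 and 1.61. Id1, an inhibitor of basic helix-loop-helix factors, was at 9.78 to 9.89 in controls and 8.50 to 9.58 in NMBA arrays and fell by 0.92 and 1.22 at weeks 6 and 29. The interferon-inducible Ly6e and the flippase gene Atp8b1 also lay below every control, with pooled differences of -0.70 and -0.51. So did Sri, a calcium-binding protein (-0.51), and Ppp1r12a, a subunit of myosin phosphatase (-0.57). The lipoprotein receptor Scarb1, the sphingosine 1-phosphate exporter Spns2, the neurotrophin receptor Ngfr and the substance P receptor Tacr1 fell at weeks 6 and 29 and overlapped the controls at week 15, and a second Tacr1 probe set differed by 0.07.

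Matrix genes were lower mainly at week 15. Of 34 measured fibroblast and matrix genes 31 were lower on average (median -0.45; -0.30, -0.97 and -0.29 by week). At weeks 6, 15 and 29, 1, 21 and 7 of them fell, against 3.76%, 8.38% and 10.8% of all genes, so the count at week 6 is near that share, and only Col6a1 lay below every control. Col6a1, a chain of type VI collagen, was at 10.64 to 11.10 in controls, 10.44 to 10.62 at week 6, 9.66 to 9.99 at week 15 and 10.16 to 10.54 at week 29, and fell by 1.07 and 0.59 at weeks 15 and 29. Sparc, a matrix glycoprotein chosen after its values were seen, differed by -0.62, -0.92 and -0.87, and fell at weeks 15 and 29, but 1 week 6 array, at 11.63, lay above the lowest control at 11.60. Sfrp2, a secreted Wnt modulator, fell by 1.68 at week 29, and Postn, the matricellular protein periostin, by 1.46 at week 15.

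By brightest probe set fewer genes lay above every control (76) than below (121), while over all probe sets more lay above (266) than below (223). Because fewer than 5 genes were called higher, those with the 5 lowest p-values are given. Tpd52l1, of the tumor protein D52 family, was at 8.94, 8.85 and 8.98 in controls, 9.49, 9.44 and 9.35 at week 6, 9.30, 9.10 and 9.53 at week 15, and 9.27, 9.19 and 9.41 at week 29. All 9 NMBA arrays lay above the controls, with a pooled difference of 0.42 ± 0.09 (SE; adjusted p = 0.344). It rose by 0.51 and 0.37 at weeks 6 and 29, and the difference at week 15 was 0.39 (adjusted p = 0.0511).

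The other 4 also lay above every control. Gng13, a G protein gamma subunit, differed by 0.31, but its signal was near the bottom of the scale, 3.64 to 3.69 in controls. Kbtbd3, a kelch and BTB domain protein, differed by 0.29, with a second probe set at 0.08. Phaf1, which acts in autophagy, differed by 0.28, and Ppif, the mitochondrial cyclophilin, by 0.33, and neither passed the test at week 15. The 1 probe set that rose at each week belonged to Gpt2, the mitochondrial alanine aminotransferase, with values of 7.83 in NMBA arrays and 7.28 in controls and rises of 0.55, 0.50 and 0.58; it was not the brightest probe set of that gene. Scn4a, the sodium channel of skeletal muscle, was the 1 gene called higher on the mean of the weeks, and it rose by 0.68 and 1.05 at weeks 6 and 29, the weeks with the higher muscle score, and differed by 0.11 at week 15; the part of muscle content in this was not tested. Thrsp, a regulator of lipid synthesis, and Mutyh, a glycosylase of base excision repair, lay above every control with pooled differences of 0.49 and 0.36. For Mutyh the lowest NMBA array and the highest control were both 7.65 to 2 decimals.

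**Figure D4:**
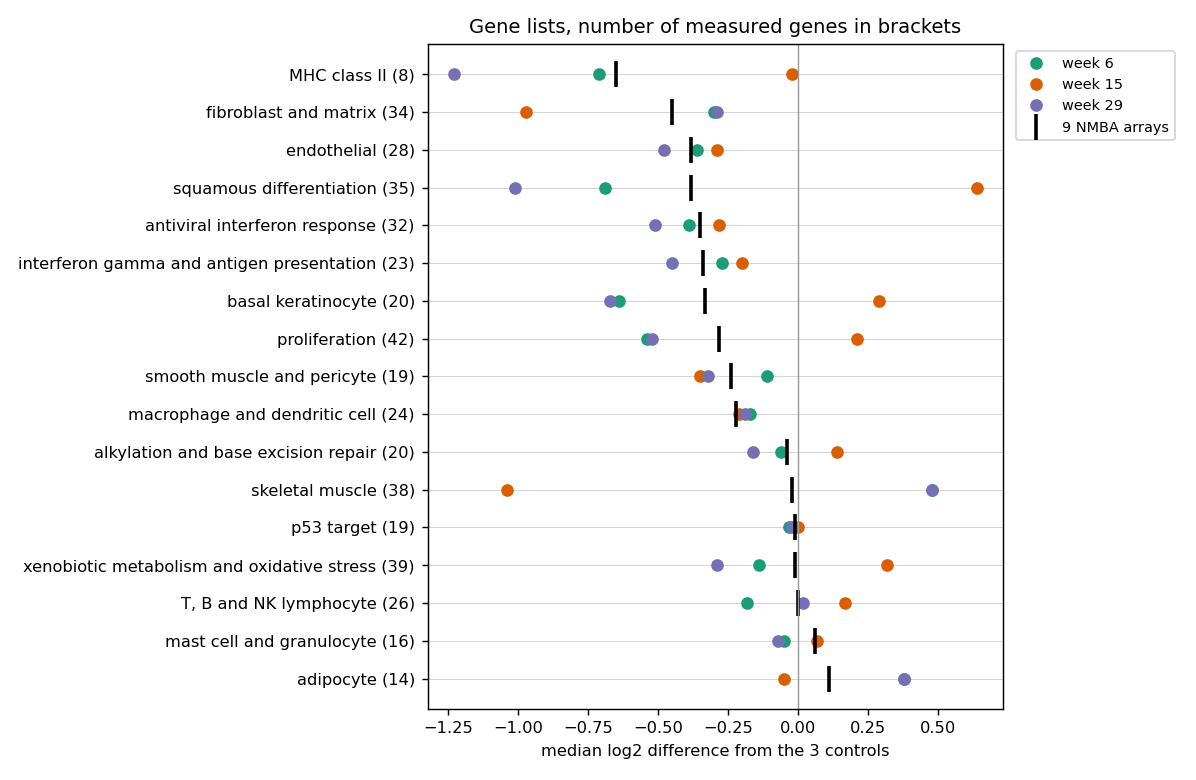
Median log2 difference from the 3 controls (horizontal axis) over the measured genes of each list (vertical axis, number of genes in brackets), at weeks 6, 15 and 29 and over the 9 NMBA arrays (black tick). All 4 medians lie below 0 for the endothelial and both interferon lists. The same holds for the MHC class II, macrophage and dendritic cell, fibroblast and matrix, and smooth muscle and pericyte lists. Squamous differentiation is at -0.69, 0.64 and -1.01 and skeletal muscle at 0.48, -1.04 and 0.48 for weeks 6, 15 and 29.

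Epithelial and muscle genes had no direction common to the weeks. Of 35 measured squamous differentiation genes 33 were lower on average (median -0.38), but the weekly medians were -0.69, 0.64 and -1.01, and none separated the groups. Sprr1a and Sprr3, of the cornified envelope, differed by -1.62, 0.41 and -2.62 and by -1.29, 0.92 and -2.68. Basal keratinocyte genes (median -0.33; 20 of 20 lower on average) had weekly medians of -0.64, 0.29 and -0.67. Krt14, the basal keratin, was at 13.61 to 13.82 in controls and 11.94 to 13.97 in NMBA arrays, and fell by 0.84 at week 6 and 1.23 at week 29. Krt13, the main suprabasal keratin, overlapped the controls with a pooled difference of -0.32 (95% interval -0.95 to 0.32), and fell at week 29 by 0.77.

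All 42 measured proliferation genes were lower on average (median -0.28), with weekly medians of -0.54, 0.21 and -0.52 and none below every control. Mki67, the proliferation marker, differed by -0.51 (-1.24 to 0.23). Ccnd1, cyclin D1, fell by 0.69 at week 6 and 1.03 at week 29. The cyclooxygenase gene Ptgs2 was at 3.02 to 3.11 in controls and 2.75 to 3.27 in NMBA arrays, and Acta1, skeletal muscle actin, at 14.63 to 14.71 and 14.03 to 14.71, near the top of the scale.

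The p53 target, base excision repair and xenobiotic lists had pooled medians of -0.01, -0.04 and -0.01. Plk2 and Sesn2, targets of p53, fell at weeks 6 and 29 but not at week 15, and Tdg, a glycosylase, differed by -0.23. Slc7a11, the cystine transporter, fell by 2.55 at week 29, and Cyp2a3, of a cytochrome P450 family that activates nitrosamines, rose by 1.28 at week 15.

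The endothelial and interferon gamma differences were then taken with the muscle score held constant. In the pooled fit with that covariate the list medians were -0.39 and -0.31, against -0.38 and -0.34 without it. The mean muscle score was 11.66 in controls and 11.62 in NMBA arrays, as week 15 lay below the controls and the other weeks above. With means this close, the covariate could hardly change the size of a pooled difference, in a list or in a single gene. Whether these differences depended on muscle content was therefore not tested by the pooled fit. That fit called 8 probe sets (0.0258%), 7 lower (0.0226%) and 1 higher (0.00322%), among them Cdkn2a (-0.93, adjusted p = 0.033), Prnd and Cxcl9. Tchh was also called lower (-0.57, adjusted p = 0.033 by limma). The 1 higher was Cyp2a3 (0.65, adjusted p = 0.033 by limma), which without the covariate was called at week 15 alone. The mean of the 3 weeks with the covariate called 79 probe sets (0.254%), 69 lower (0.222%) and 10 higher (0.0322%), and all 50 called without it were among them. In single weeks the covariate left 1, 0 and 2124 called probe sets at weeks 6, 15 and 29, and the weekly calls given above are those of the fit without it.

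With week 15 left out, the pooled comparison called 6649 probe sets, and without week 6 or without week 29 it called 0. The GAPDH difference was lower than in controls at weeks 6 and 29 but not at week 15. With it as a covariate the endothelial median was -0.27, the interferon gamma median -0.24 and the pooled difference of Cdkn2a -0.89 (adjusted p = 0.583), and its part in these results beyond those values was not tested.

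**Figure D5:**
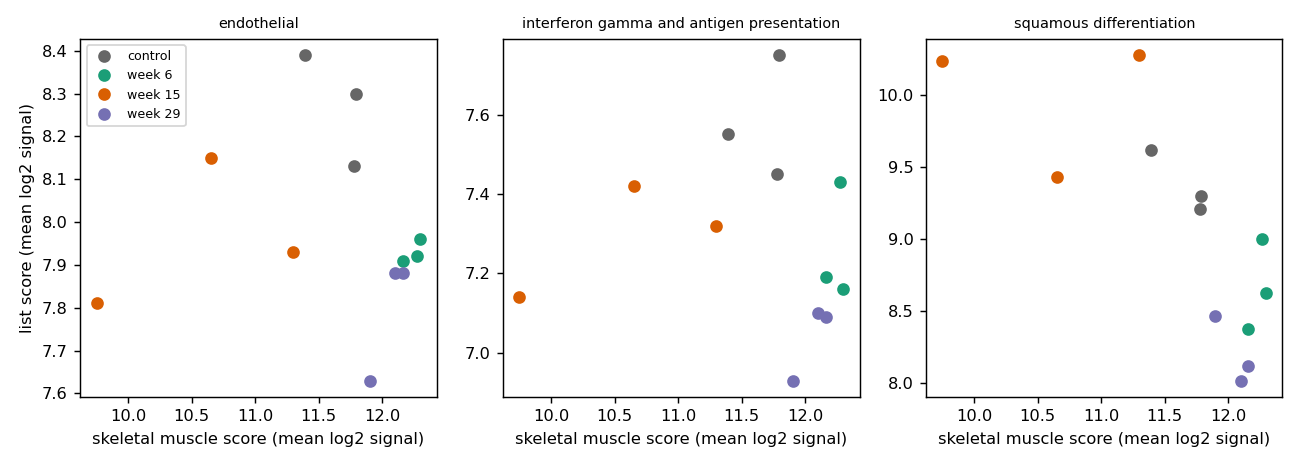
Mean log2 signal of 3 gene lists (vertical axis, a separate scale in each panel) against the skeletal muscle score (horizontal axis), with 1 point per array in 4 groups. The interferon gamma scores of the 9 NMBA arrays, 6.93 to 7.43, lie below those of the controls. Endothelial scores overlap, at 7.63 to 8.15 in NMBA arrays and 8.13 to 8.39 in controls. Muscle scores are 11.39 to 11.79 in controls, 9.75 to 11.30 at week 15 and 11.90 to 12.30 at weeks 6 and 29. No NMBA array therefore shares the muscle range of the controls, and a part of muscle content was not tested. The squamous score is 9.43 to 10.28 at week 15 and 8.02 to 9.0 at weeks 6 and 29.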

How the data were processed

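RNA from 12 rat esophagus samples was measured on Affymetrix arrays, 1 per sample. The deposited values are log2 probe set signals. Per the submitters' processing notes, the authors used Affymetrix Expression Console; its summarization method is not stated there. Precision is limited by the number of arrays, and no detection calls were used. From the 31099 probe sets, 57 control ones were removed, and the other 31042 were all tested, dim ones included. By GEO's platform annotation 20826 of them had 1 symbol, 436 had several and 9780 were unlisted, and the brightest single-symbol probe set stood for each of 14217 genes. No column was averaged: pairs of arrays shared 7 to 47 identical values.

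The 9 NMBA arrays were compared with the 3 controls, two-sided, by lmFit and eBayes of limma 3.58.1 (R 4.3.3), with 10 residual degrees of freedom. A 4-group fit (8 residual degrees of freedom) gave each week against control, their mean, the F test among weeks, and an intersection-union test whose p is the largest of the 3 weekly p-values. P-values were adjusted by Benjamini-Hochberg over all tested probe sets and called under 0.05. Intervals are 95% from the moderated fit. The code was tested on simulated data.

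Genes named by rule were the 5 lowest p-values in each direction (fewer than 5 genes were called), 2 members of each described list by size of difference, and Mki67, Ptgs2, Krt13, Krt14, Cdkn1a and Acta1, with provisional names skipped. Every other gene, including those called at each week or on the mean of the weeks, was chosen after its values were seen. The comparison and the lists were chosen with earlier results of these data known. Promoter sequences are RefSeq's on GRCr8, matched by gene symbol for 11733 of 14217 genes. Replicate numbers were not used to pair the samples in the main fits. Over 18 pairs of same-numbered arrays, deviations from the group means correlated at -0.41 to 0.29, and 8 pairs were over 0.1. Differently numbered arrays were not set beside them, so whether the numbers mark pairs or a shared batch was not tested. Alternatives covered normalization, dim probe sets, muscle and GAPDH covariates, the eBayes setting, array weights, a minimum change, a replicate block, other probe sets and leaving out arrays or weeks.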

Additional observations from a re-analysis of the deposited data

Results flagged for a closer look

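In the 9 NMBA arrays some values had 1 array far from the others, measured as its gap to the nearest array over the whole range of the 9. Chance alone does this in about 1 in 20 groups of 9 values drawn from 1 normal distribution. The 9 arrays come from 3 weeks that often differed, and many genes and scores were screened, so that rate need not hold here. The gap was 0.792 of the range for Acta1 (week 15 replicate 3, at 14.03), 0.597 for Erg (week 29 replicate 1, at 6.57), 0.541 for Ifi27 (week 15 replicate 3, at 12.23) and 0.538 for Ddx60 (week 15 replicate 1, at 4.76). Among list scores it was 0.625 for smooth muscle and pericyte genes (week 6 replicate 3, at 10.21) and 0.672 for glandular and simple epithelium genes (week 15 replicate 2, at 6.60).

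For other genes the difference from control itself differed between weeks 6, 15 and 29, by limma's moderated F test adjusted over all probe sets, which 37.2% of probe sets passed. The values that follow are its adjusted p. Among genes of immune cells and interferon they were 3.12e-05 for Irf8, 0.00138 for Itgax, 0.0412 for Clec9a, 0.000991 for RT1-Da, 0.00503 for RT1-Db1, 0.0241 for Slfn4, 0.00831 for Psmb9, 0.00794 for Psmb8, 0.00418 for Tap1, 0.0042 for Ifi27l2b, 0.00923 for Ifit2, 0.00759 for Lgals3bp, 0.00926 for Ly6e, 0.000161 for S100a9 and 0.00271 for S100a8. In vascular, matrix and neural genes they were 0.000113 for Plvap, 0.0429 for Cd93, 0.0187 for Rasip1, 0.00777 for Col6a1, 0.00296 for Ngfr, 9.99e-05 for Tacr1 and 0.000955 for Spns2. Muscle genes gave 0.00632 for Tnnc1, 0.00618 for Tnnt1 and 0.000311 for Scn4a.

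Keratinocyte and growth genes gave 0.0012 for Sprr1a, 0.000221 for Sprr3, 0.00222 for Krt13, 0.00175 for Krt14, 0.0213 for Krt17, 0.00407 for Tchh, 0.000711 for Ccnd1, 0.0206 for Mki67, 0.00728 for Cdkn1a, 0.00116 for Plk2 and 0.000218 for Sesn2. The rest were 0.00972 for Prnd, 0.00181 for Igfbp3, 0.00951 for Id1, 0.00648 for Ahrr, 0.00175 for Atp8b1, 0.000146 for Scarb1, 0.0115 for Sri, 0.00814 for Ppp1r12a, 0.00117 for G0s2, 9.5e-05 for Slc7a11, 0.00158 for Cyp2a3 and 0.0327 for Tdg. S100a9, the calprotectin subunit, had differences from control of -0.70, 2.73 and -0.29 at weeks 6, 15 and 29.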

How the results depend on the processing

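The pooled comparison called 1 probe set, and 0 to 1 when single arrays were left out. It called 8 with the muscle score as a covariate, 50 as the mean of the 3 weeks, 20 with array weights by group, 0 at a minimum change of 1.2-fold, 0 without week 6, 6649 without week 15 and 0 without week 29. Probe sets whose values did not overlap numbered 489, 521 to 1354 without single arrays, 1349 without week 6, 7361 without week 15 and 738 without week 29. The intersection-union count was 0 under every alternative run. Counts at weeks 6, 15 and 29 ranged from 1 to 3454, 881 to 3057 and 274 to 6120 without single arrays. They were 1, 0 and 2124 with the muscle covariate, 8, 2612 and 132 with the GAPDH covariate, and 4391, 135 and 4208 with each week fitted alone. The count called at each week was 0 to 52 without single arrays (0 to 46 lower), 0 with either covariate (0 lower) and 3 with each week fitted alone (3 lower). The replicate block left the pooled count at 1, gave 2420, 2432 and 4556 by week and 37 at each week, of which 35 were lower against 36 without the block.

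List medians without single arrays were -0.45 to -0.32 (endothelial), -0.43 to -0.22 (antiviral), -0.46 to -0.28 (interferon gamma) and -0.81 to -0.38 (MHC class II), the last -0.30 with the GAPDH covariate and -0.98 without week 15. Some differences near 0 changed sign: Ptgs2 (0.00 after median subtraction, 0.04 with GAPDH, 0.06 without week 6, -0.04 to 0.03 without single arrays), Cdkn1a (0.00 with muscle, 0.23 without week 15, 0.59 by another probe set, -0.12 to 0.09), Acta1 (0.04 without week 15, -0.07 to 0.02), Cdkn2b (0.02 without week 29, -0.08 to 0.00) and Sesn2 (0.11 with GAPDH). Without week 15, S100a9 was at -0.49 and Tnnc1 and Tnnt1 both at 0.17. Other, dimmer probe sets gave 0.06 for Cd93, 0.07 and 0.01 for Runx1t1, 0.04 for Sox17, 0.07 for Tacr1, and 0.10 and 0.20 for Rasip1. The causes were not tested. Without detection calls, dim probe sets such as those of Gng13, Gbp4, Prnd and Clec9a carry no check of signal over background. Their mean signals in NMBA arrays were 3.97, 4.12, 4.41 and 4.23.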
